A study of Mus musculus with 13 samples.

Results

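The genes described here are 10 genes read as macrophage and complement C1q markers, namely Csf1r, Cd68, Adgre1, C1qa, C1qb, C1qc, Cd163, Mrc1, Cd5l and Marco, in 3 mouse models of neuroblastoma and in normal adrenal gland. They were taken by symbol with no filter on their values, and the list was chosen with earlier results of these data known. With every probe set annotated to them, this gave 10 of 18193 named genes and 15 of 45101 probe sets on the array. Neuroblastoma is a childhood tumour of the sympathetic nervous system, and the study asked how tumours driven by MYCN differ from tumours driven by mutated ALK or by both oncogenes. RNA of 13 samples was measured on Affymetrix mouse arrays and summarised by the authors as log2 expression.

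The groups were tumours of mice transgenic for mutated ALK, a receptor tyrosine kinase (mutALK, n = 3 arrays), tumours of mice transgenic for MYCN, a transcription factor (MYCN, n = 4), tumours of mice carrying both transgenes (MYCN AND mutated ALK, here double transgenic, n = 3) and normal adrenal tissue (n = 3). All were on a C57BL/6 background, ages are not given in the sources used here, and the transgenes were restricted to the neural crest. Transgenic mice were followed up to a palpable tumour. Whether every array is of a separate animal is not given, and the titles of mutALK 2 and 3 share a number, as do those of MYCN 2 and 3, so p-values measure the spread among these samples only. Arrays are numbered within a group and the numbers pair nothing.

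Macrophages are tissue phagocytes that depend on signals through the CSF1 receptor. They are the main source of C1q, the recognition molecule of the classical complement pathway, which is assembled from the A, B and C chains, binds immune complexes and dying cells and is needed as a set of all the chains. Tissue macrophages also carry scavenger receptors that differ between tissues and states, and in tumours such cells are known to take part in clearing debris, vessel growth and immune suppression. In whole-tissue RNA, fewer cells of a type and less RNA per cell cannot be told apart.

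The promoters of Cd5l, Cd68, C1qb, C1qc, Cd163 and Mrc1 are shown because each of these genes carries a called difference described below. Of the 10 members 7 matched an entry by symbol, the other being Marco, which was not called in any comparison. They are RefSeq sequences on GRCm38.p6 from 250 bases before to 50 bases after the annotated gene start, 5′ to 3′ on the gene's strand, at chr3:87357631-87357930 (plus strand) for Cd5l, chr11:69666121-69666420 (minus) for Cd68, chr4:136886151-136886450 (minus) for C1qb, chr4:136892865-136893164 (minus) for C1qc, chr6:124304401-124304700 (plus) for Cd163 and chr2:14229164-14229463 (plus) for Mrc1. Capitals mark GAGGAA or its reverse complement TTCCTC, letters of the type bound by PU.1, the myeloid transcription factor, and TGCTGA or TCAGCA, the core of the element bound by MAF factors.
Cd5l: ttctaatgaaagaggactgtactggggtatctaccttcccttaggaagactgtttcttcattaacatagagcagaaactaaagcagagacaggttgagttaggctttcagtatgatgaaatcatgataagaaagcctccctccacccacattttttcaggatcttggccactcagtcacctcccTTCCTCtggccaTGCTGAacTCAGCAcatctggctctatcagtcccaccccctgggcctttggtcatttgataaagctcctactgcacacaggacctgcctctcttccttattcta
Cd68: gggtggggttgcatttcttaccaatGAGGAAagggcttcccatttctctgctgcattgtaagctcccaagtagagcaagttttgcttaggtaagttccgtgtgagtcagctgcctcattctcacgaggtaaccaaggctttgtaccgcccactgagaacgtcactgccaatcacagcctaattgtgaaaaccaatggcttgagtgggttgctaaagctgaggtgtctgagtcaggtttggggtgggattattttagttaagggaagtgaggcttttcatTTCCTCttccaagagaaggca
C1qb: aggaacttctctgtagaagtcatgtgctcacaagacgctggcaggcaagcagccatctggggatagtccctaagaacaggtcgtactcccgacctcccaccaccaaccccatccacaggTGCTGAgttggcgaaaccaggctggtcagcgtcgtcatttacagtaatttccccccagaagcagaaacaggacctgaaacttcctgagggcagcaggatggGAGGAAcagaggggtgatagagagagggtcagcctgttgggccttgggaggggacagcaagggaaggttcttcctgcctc
C1qc: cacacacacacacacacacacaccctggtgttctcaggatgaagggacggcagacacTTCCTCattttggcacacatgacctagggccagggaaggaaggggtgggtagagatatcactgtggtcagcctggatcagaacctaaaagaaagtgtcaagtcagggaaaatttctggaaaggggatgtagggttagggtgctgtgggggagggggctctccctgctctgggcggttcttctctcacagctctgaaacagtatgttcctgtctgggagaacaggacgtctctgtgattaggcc
Cd163: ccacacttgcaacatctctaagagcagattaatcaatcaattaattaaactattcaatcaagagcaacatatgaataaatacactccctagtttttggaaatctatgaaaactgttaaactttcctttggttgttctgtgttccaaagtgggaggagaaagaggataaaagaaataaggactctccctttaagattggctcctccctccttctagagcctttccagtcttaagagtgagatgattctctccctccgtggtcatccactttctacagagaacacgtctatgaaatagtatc
Mrc1: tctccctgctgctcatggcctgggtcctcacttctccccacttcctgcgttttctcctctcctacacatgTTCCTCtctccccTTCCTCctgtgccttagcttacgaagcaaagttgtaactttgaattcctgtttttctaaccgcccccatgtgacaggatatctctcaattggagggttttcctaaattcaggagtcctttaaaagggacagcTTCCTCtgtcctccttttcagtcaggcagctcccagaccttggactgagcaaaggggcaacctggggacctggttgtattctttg
The matches of these motifs did not overlap one another. GAGGAA on either strand stood in 6 of the 7 member promoters in the table, at 3 places in Mrc1, 2 in Cd68 and not in Cd163, against 28.3% of 32851 mouse promoters of the same length. TGCTGA on either strand stood in 2 of 7, at 2 places in Cd5l and 1 in C1qb, against 19.5% of all promoters. A match is a description of letters and not a binding site. In the RefSeq gene order of chromosome 4 the C1q genes are neighbours, with C1qb, C1qc and C1qa between Ephb2 and Epha8.

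Values are log2 expression throughout, with levels as mean ± SD over arrays and differences as first group minus second ± SE. Tests are limma's moderated test in 1 fit of all 13 arrays, adjusted by Benjamini-Hochberg over 18193 genes, and a gene is called at an adjusted p under 0.05. No detection calls were used. By Y-linked genes, mutALK 3, MYCN 1, 2 and 3 and double transgenic 2 and 3 read as male. The other 7 arrays, all adrenal arrays among them, read as female, so sex and group were partly confounded. Hepatocyte genes (13 of 14 measured, among them Alb and Apoa1) averaged above 8 in mutALK 1 and 3, MYCN 2, double transgenic 1 and adrenal 2, at 8.57 to 11.87, and at 4.46 to 5.75 in the other 8 arrays. Genes of the adrenal cortex (8 of 8 measured) averaged 4.64 to 6.54 in the tumours and 11.34 to 12.68 in adrenal gland, and sympathoadrenal genes (7 of 8) 9.58 to 11.42 in the tumours and 9.06 to 10.31 in adrenal gland. Calls of the 10 genes lost without the 5 hepatocyte-high arrays are given with their value. That fit keeps 8 arrays, 1 of them mutALK, whose spread is taken from the other groups. Calls of genes outside the 10 were not checked in that fit or in any other alternative.

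Cd5l stood apart from the other members. It encodes a protein that tissue macrophages secrete, also named apoptosis inhibitor of macrophages. It read 10.43, 9.74 and 9.58 in mutALK, 11.13, 10.58, 10.27 and 11.54 in MYCN and 11.28, 10.82 and 9.85 in tumours with both transgenes, against 4.25, 5.57 and 4.76 in adrenal gland. All 10 tumour arrays lay above all 3 adrenal arrays, with a gap of several log2 units between them. The rise over adrenal gland was 5.05 ± 0.45 in mutALK (limma, adjusted p = 7.68e-06), 6.02 ± 0.42 in MYCN (adjusted p = 5.52e-07) and 5.79 ± 0.45 in double transgenic tumours (adjusted p = 1.61e-06). These are 33.2-fold, 64.8-fold and 55.3-fold, and they placed Cd5l at rank 28, 5 and 9 of 18193 genes ordered from the largest rise. The 3 comparisons share the adrenal arrays. The call held under all 26 alternatives in each of them, at 4.75 to 5.55, 5.71 to 6.6 and 5.48 to 6.42.

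The hepatocyte mean was 10.8, 4.84 and 9.5 in mutALK, 5.47, 8.57, 4.46 and 4.95 in MYCN and 11.87, 4.53 and 5.75 in tumours with both transgenes, against 5.34, 10.76 and 5.46 in adrenal gland. The array with the highest hepatocyte mean also had the highest Cd5l in mutALK, in double transgenic tumours and in adrenal gland, and in MYCN it did not. With that mean as a covariate the Cd5l rise over adrenal gland was 4.93 in mutALK, 6.16 in MYCN and 5.77 with both transgenes (limma, adjusted p = 9.63e-06, 7.09e-07 and 1.94e-06), and without the 5 hepatocyte-high arrays it was 5.23, 6.47 and 5.83 (adjusted p = 0.000918, 4.74e-05 and 0.00012). Among the tumours Cd5l was nearer in level. The difference was -0.97 ± 0.42 for mutALK minus MYCN (adjusted p = 0.111), -0.23 ± 0.42 for double transgenic minus MYCN (adjusted p = 0.792) and 0.74 ± 0.45 for double transgenic minus mutALK (adjusted p = 0.320), so none was called. Their 95% intervals ran from -1.89 to -0.04, from -1.15 to 0.69 and from -0.25 to 1.72.

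**Figure D1:**
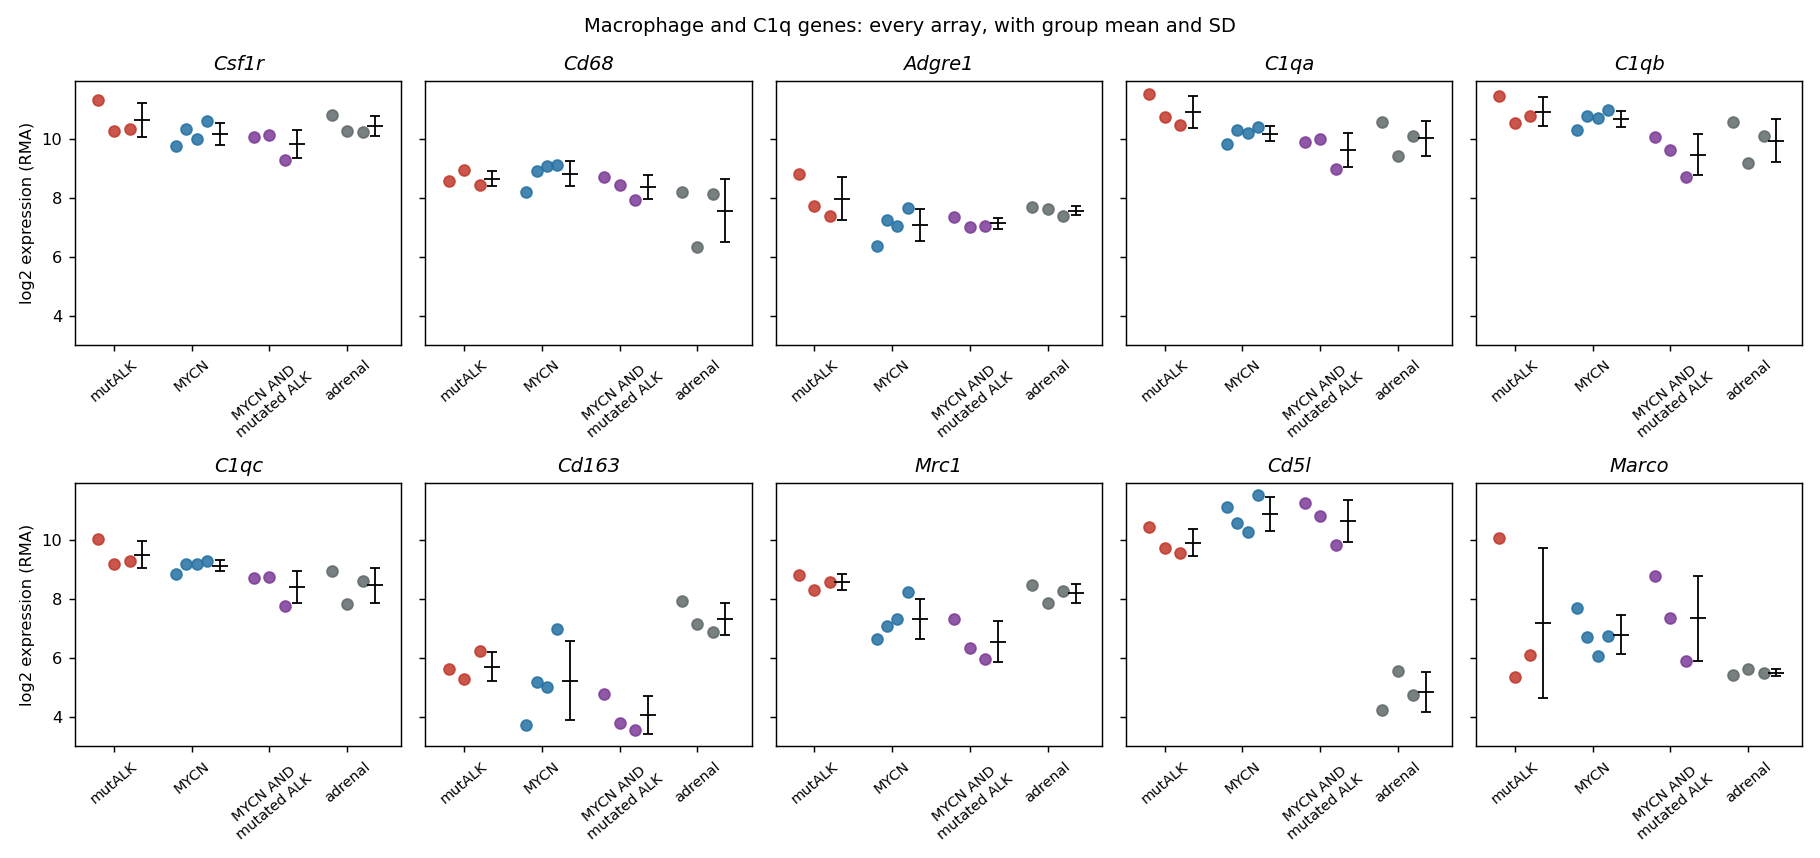
Log2 expression of the 10 genes (vertical axis) in every array of the 4 groups (horizontal axis), with 1 point per array and a bar at the group mean with its SD; 1 panel per gene, read at its probe set of highest mean. Cd5l is at 9.58 to 11.54 in the tumours and 4.25 to 5.57 in adrenal gland, Cd163 has its highest group mean in adrenal gland, and Marco spreads from 5.38 to 10.08 within mutALK.

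Cd5l apart, the calls against adrenal gland were spread over few of the 10 genes. In mutALK 2 of 10 were called, both higher (C1qc and Cd5l), against 42.2% of all genes (21.3% higher and 21% lower), and the median member difference was 0.94 against 0.002 over all genes. In MYCN 3 were called, with Cd68 and Cd5l higher and Cd163 lower, against 50.2% of all genes (25.4% higher and 24.8% lower), and the median was 0.41 against -0.018. In double transgenic tumours 3 were called, with Cd5l higher and Cd163 and Mrc1 lower, against 48.6% of all genes (24.3% higher and 24.2% lower), and the median was -0.41 against -0.030. The groups did not overlap for 4 members in mutALK, 2 in MYCN and 6 in tumours with both transgenes, against 48.2%, 53.4% and 53.2% of all genes. Each of these shares of the members was below or near that of all genes.

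Between tumour groups, 1 of 10 was called for mutALK minus MYCN (Mrc1, higher), against 30.8% of all genes (13.6% higher and 17.2% lower), with a median of 0.43 against 0.003. For double transgenic minus MYCN limma called 0 of 10, against 12.8% of all genes (6.16% higher and 6.66% lower), with 2 at an unadjusted p under 0.05, 0 or 1 called under the alternatives, and a median of -0.50 against -0.031. For double transgenic minus mutALK 3 were called, all lower (C1qa, C1qb and Mrc1), against 14.4% of all genes (8.39% higher and 6.04% lower), with a median of -0.96 against -0.022. There 8 of 10 differences were below 0 and the groups did not overlap for 7, against 32.9% of all genes. They did not overlap for 2 of 10 in mutALK minus MYCN and 2 of 10 in double transgenic minus MYCN, against 40.6% and 30.6% of all genes. These counts share arrays between comparisons. mutALK 1 was the highest of the 13 arrays for 7 of the 10 genes and double transgenic 3 the lowest for 6, and leaving out 1 array moved the count of 3 to between 1 and 4.

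**Figure D2:**
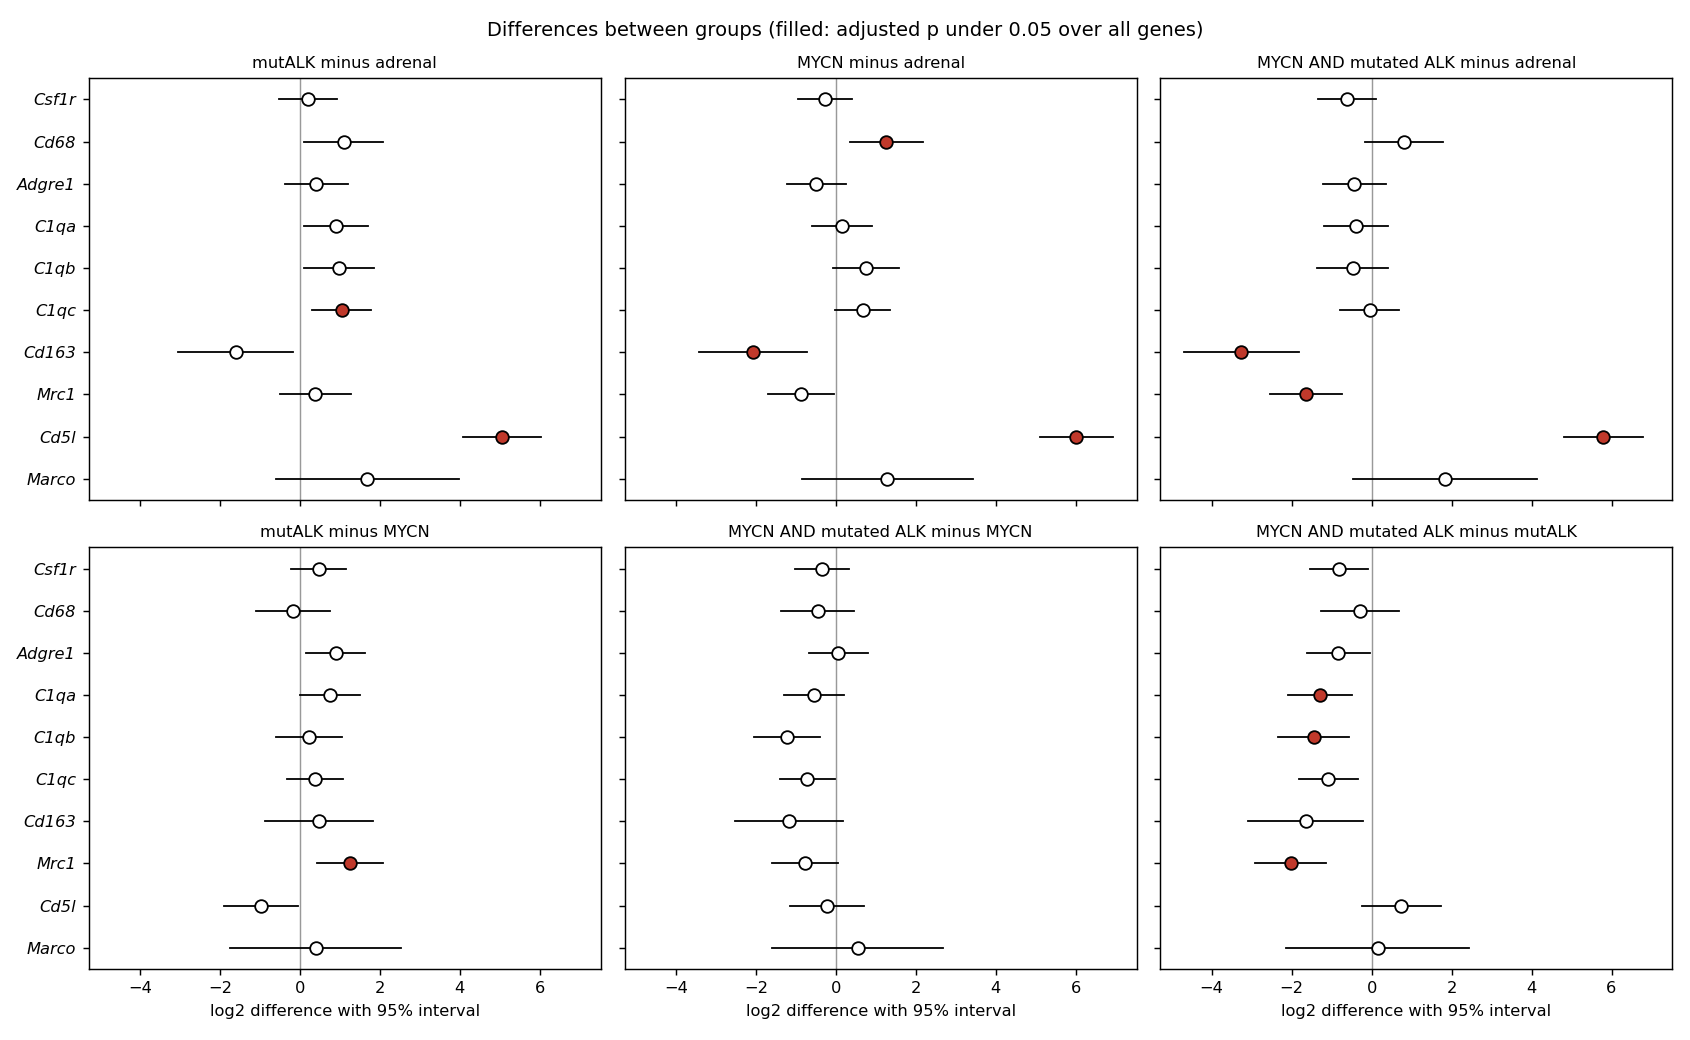
Log2 difference (horizontal axis) of each of the 10 genes (vertical axis) in the 6 comparisons, first group minus second, with its 95% interval from limma; filled points have an adjusted p under 0.05 over all genes. Cd5l is at 5.05 to 6.02 against adrenal gland, and 8 of 10 points lie below 0 for double transgenic minus mutALK.

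Of the general macrophage genes Csf1r, Adgre1 and Cd68, 1 was called, Cd68 in MYCN against adrenal gland. Csf1r, the receptor for CSF1 and IL34, read 11.30, 10.25 and 10.33 in mutALK, 9.74, 10.33, 9.99 and 10.59 in MYCN and 10.05, 10.13 and 9.27 in tumours with both transgenes, against 10.80, 10.26 and 10.22 in adrenal gland. The tumour arrays lay on both sides of the adrenal arrays, apart from the double transgenic ones, which were all below. Csf1r was not called in any of the 6 comparisons, with differences from adrenal gland of 0.20 ± 0.33 in mutALK, -0.27 ± 0.31 in MYCN and -0.61 ± 0.33 with both transgenes (adjusted p = 0.686, 0.528 and 0.153). The 95% interval of the last ran from -1.34 to 0.11. Of its other 2 probe sets, 1 was called lower in double transgenic tumours than in adrenal gland, at -0.78 ± 0.29 (limma over all probe sets, adjusted p = 0.0426), and the other was not, at -0.82 ± 0.33 (adjusted p = 0.0633).

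Adgre1, an adhesion receptor used as a surface marker of mouse macrophages, averaged 7.96 ± 0.74 in mutALK, 7.07 ± 0.54 in MYCN and 7.13 ± 0.19 in tumours with both transgenes, against 7.56 ± 0.16 in adrenal gland. It was not called in any comparison. Its largest difference was 0.90 ± 0.34 for mutALK minus MYCN (adjusted p = 0.0650), and the groups overlapped. Cd68, a lysosomal glycoprotein of phagocytes, read 8.55, 8.93 and 8.43 in mutALK, 8.18, 8.89, 9.07 and 9.09 in MYCN and 8.71, 8.43 and 7.91 in tumours with both transgenes, against 8.20, 6.32 and 8.12 in adrenal gland. Adrenal 2 was far below the other adrenal arrays, and MYCN 1 was level with adrenal 1. Cd68 rose by 1.26 ± 0.42 in MYCN over adrenal gland (limma, adjusted p = 0.0250). The call was lost without adrenal 2 (0.65, adjusted p = 0.0818), without MYCN 2, 3 or 4 (1.17 to 1.23, adjusted p = 0.0521 to 0.0602), without the 5 hepatocyte-high arrays (0.62, adjusted p = 0.151), with arrays of a shared title number averaged (1.20, adjusted p = 0.0681) and with the compared groups alone (1.26, adjusted p = 0.0707). In mutALK the difference from adrenal gland was 1.09 ± 0.45 (adjusted p = 0.0721) and in double transgenic tumours 0.80 ± 0.45 (adjusted p = 0.166).

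The C1q chains had their highest group means in mutALK and their lowest in double transgenic tumours. C1qa, the A chain, read 11.52, 10.74 and 10.47 in mutALK, 9.81, 10.27, 10.18 and 10.39 in MYCN and 9.89, 10.00 and 8.95 in tumours with both transgenes, against 10.56, 9.39 and 10.08 in adrenal gland. All mutALK arrays were above all MYCN and double transgenic arrays, and the adrenal arrays spread across the tumours. C1qb, the B chain, read 11.45, 10.53 and 10.75 in mutALK, 10.31, 10.75, 10.69 and 10.96 in MYCN and 10.05, 9.62 and 8.70 in tumours with both transgenes, against 10.56, 9.16 and 10.07 in adrenal gland. Here mutALK and MYCN overlapped, and every double transgenic array lay below every array of both. C1qc, the C chain, read 10.05, 9.19 and 9.30 in mutALK, 8.85, 9.20, 9.21 and 9.28 in MYCN and 8.71, 8.76 and 7.79 in tumours with both transgenes, against 8.96, 7.83 and 8.61 in adrenal gland. The double transgenic arrays were again below all arrays of the other tumours, and double transgenic 3 was lowest of the 13 arrays.

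Against mutALK, double transgenic tumours had lower C1qa by 1.29 and C1qb by 1.45, as differences of -1.29 ± 0.36 (limma, adjusted p = 0.0367) and -1.45 ± 0.40 (adjusted p = 0.0357), or 2.45-fold and 2.74-fold. C1qc missed the threshold at -1.09 ± 0.34 (adjusted p = 0.0514). C1qa kept its call under 15 of 26 alternatives and missed the threshold without mutALK 1 or 2, MYCN 2 or 3 or any double transgenic array (-1.49 to -0.96, adjusted p = 0.0532 to 0.125). C1qb kept it under 14 of 26 and missed it without any mutALK array, MYCN 2 or 3 or double transgenic 2 or 3 (-1.64 to -1.07, adjusted p = 0.0517 to 0.121). Both calls were also lost without the 5 hepatocyte-high arrays, at -1.26 for C1qa and -1.37 for C1qb (adjusted p = 0.129 and 0.0961), and with arrays of a shared title number averaged, at -1.45 and -1.59 (adjusted p = 0.0683 and 0.0751). With sex as a covariate they were at -1.14 and -1.29 (adjusted p = 0.0675 and 0.0656), and with the compared groups alone the adjusted p was 0.0874 and 0.0776. The other 2 probe sets of C1qb were at -1.07 ± 0.36 and -1.20 ± 0.40 and were not called (adjusted p = 0.0707 and 0.0705). Against MYCN the double transgenic differences were -0.55 ± 0.34 for C1qa, -1.22 ± 0.38 for C1qb and -0.71 ± 0.31 for C1qc, none called (adjusted p = 0.345, 0.0569 and 0.171). C1qb passed the threshold there in 10 of 26 alternatives.

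Against adrenal gland, C1qc rose by 1.04 ± 0.34 in mutALK (limma, adjusted p = 0.0258), while C1qa and C1qb were at 0.90 ± 0.36 and 0.98 ± 0.40 (adjusted p = 0.0678 and 0.0732). The call for C1qc was lost without mutALK 1 (0.78, adjusted p = 0.104), without adrenal 2 (0.72, adjusted p = 0.0964), without the 5 hepatocyte-high arrays (0.41, adjusted p = 0.513), with array weights (0.60, adjusted p = 0.0597) and with the compared groups alone (1.04, adjusted p = 0.0741). No C1q gene was called in MYCN or in double transgenic tumours against adrenal gland, at 0.15 to 0.74 in MYCN and -0.47 to -0.05 in double transgenic tumours (adjusted p = 0.102 to 0.929). Between mutALK and MYCN the differences were 0.75 ± 0.34 for C1qa, 0.23 ± 0.38 for C1qb and 0.38 ± 0.31 for C1qc (adjusted p = 0.127, 0.717 and 0.436).

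The C1q genes followed one another from array to array. Over the 13 arrays, which share RNA and normalization between genes, Pearson's r was 0.900 for C1qa with C1qb, 0.932 for C1qa with C1qc and 0.962 for C1qb with C1qc. With group means removed it was 0.938, 0.977 and 0.969. Csf1r went with C1qa at r = 0.860, with C1qb at 0.730 and with C1qc at 0.705. Taken per array relative to Csf1r, with no test, C1qc was higher than in adrenal gland by 0.84 in mutALK, 0.93 in MYCN and 0.57 with both transgenes, and each tumour group lay above all adrenal arrays. C1qb lay above all adrenal arrays in mutALK (0.78) and MYCN (1.01) and overlapped them with both transgenes (0.14). C1qa lay above them in mutALK (0.70) and overlapped them in MYCN (0.42) and with both transgenes (0.22). On the same scale C1qb in double transgenic tumours differed by -0.64 from mutALK and by -0.87 from MYCN, with no overlap in either. C1qc differed by -0.27 and -0.36 in that order, also with no overlap. C1qa differed by -0.48 from mutALK with no overlap and by -0.20 from MYCN with overlap. The share of all genes without overlap on this scale was not computed.

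**Figure D3:**
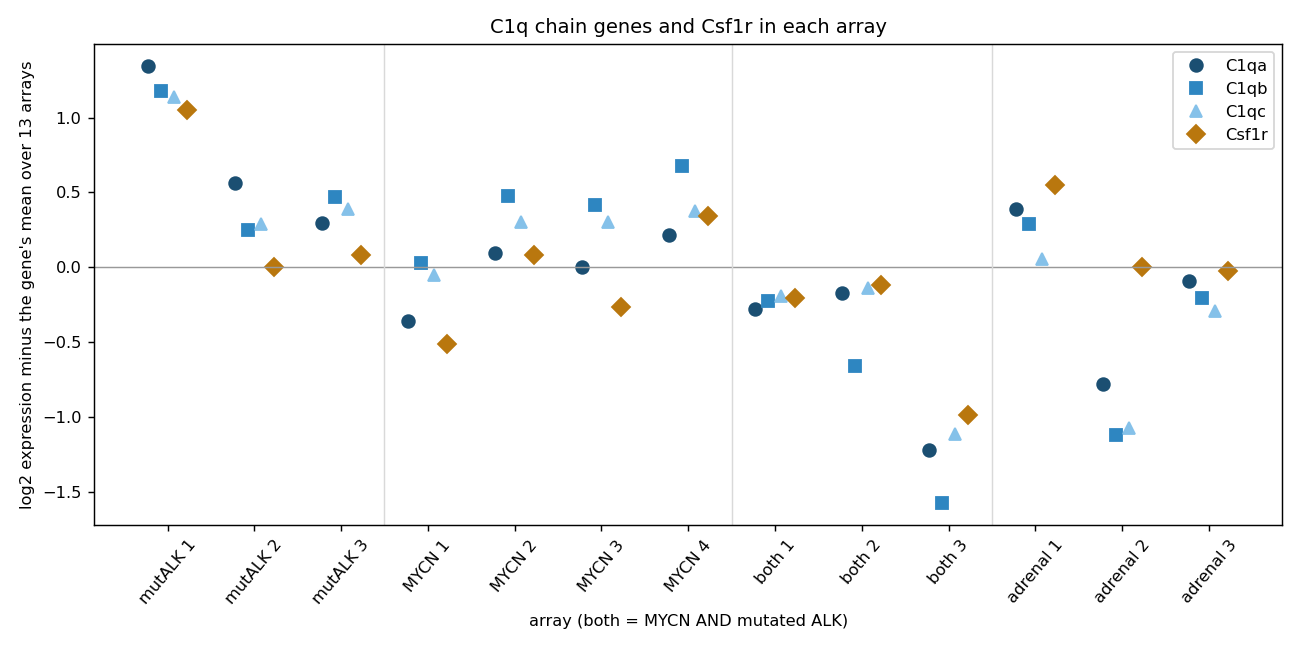
Log2 expression of C1qa, C1qb, C1qc and Csf1r minus each gene's mean over the 13 arrays (vertical axis) for each array (horizontal axis, grouped mutALK, MYCN, double transgenic marked as both, adrenal). The C1q genes move as a block, from 1.14 to 1.35 in mutALK 1 to between -1.57 and -1.12 in double transgenic 3, while in adrenal 2 they are at -1.12 to -0.78 and Csf1r is at 0.00.

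The genes outside the 10 whose levels went most closely with the mean of the C1q genes over the 13 arrays, by Pearson's r, were Gpr65 (r = 0.936), Ctsc (0.918), Evi2a, Ms4a6d (both between 0.915 and 0.917), Zfp935, Cd300c2, Senp8 and Mpeg1 (0.910). Ctsc encodes the lysosomal protease cathepsin C and Mpeg1 the pore protein perforin-2 of macrophages. For Cd5l the closest were Zfp428 (r = 0.983), Mvb12b, Fzd3, Ccdc106, Csnk1e, Spast, Sox11 and Pfdn4 (0.977). Sox11 is a transcription factor of neural progenitors. The tumour and adrenal arrays form separate clusters for Cd5l, and r over all 13 describes that split. Spearman's rho for these 8 genes with Cd5l was 0.709 to 0.857.

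The haemoglobin scavenger receptor Cd163 was lower in tumours than in adrenal gland. It read 5.65, 5.28 and 6.23 in mutALK, 3.76, 5.21, 5.02 and 7.0 in MYCN and 4.80, 3.82 and 3.59 in tumours with both transgenes, against 7.93, 7.17 and 6.89 in adrenal gland. Of 10 tumour arrays 9 lay below every adrenal array, and MYCN 4 lay inside the adrenal range. MYCN 1 and double transgenic 2 and 3, at 3.59 to 3.82, were little above the 2.73 to 3.53 of Y-linked genes in arrays read as female. The size of the falls may therefore be limited by background. Cd163 fell by 3.26 ± 0.66 in double transgenic tumours, or 9.57-fold (limma, adjusted p = 0.00145), and by 2.08 ± 0.61 in MYCN, or 4.23-fold (adjusted p = 0.0139). In mutALK the difference was -1.61 ± 0.66 (adjusted p = 0.0709). The call in double transgenic tumours held under all 25 alternatives that gave a value. That in MYCN was lost once sex entered the model (-1.37, adjusted p = 0.133), without adrenal 1 (-1.78, adjusted p = 0.0613) and without the 5 hepatocyte-high arrays (-2.15, adjusted p = 0.0830). Between tumour groups Cd163 was not called.

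Mrc1, the mannose receptor, was lower in double transgenic tumours than in mutALK and in adrenal gland. It read 8.83, 8.31 and 8.60 in mutALK, 6.64, 7.09, 7.34 and 8.26 in MYCN and 7.34, 6.35 and 5.99 in tumours with both transgenes, against 8.48, 7.86 and 8.27 in adrenal gland. The mutALK arrays overlapped adrenal gland and lay above all arrays of the other tumours, all double transgenic arrays lay below adrenal gland, and double transgenic and MYCN arrays overlapped. Mrc1 fell by 2.02 ± 0.41 in double transgenic tumours against mutALK, or 4.06-fold (limma, adjusted p = 0.00959), and by 1.64 ± 0.41 against adrenal gland, or 3.13-fold (adjusted p = 0.00530). It was higher in mutALK than in MYCN by 1.25 ± 0.38, or 2.37-fold (adjusted p = 0.0266). Both falls kept their calls when any 1 array was left out, and the fall against mutALK missed the threshold without the 5 hepatocyte-high arrays (-2.14, adjusted p = 0.0637). The difference between mutALK and MYCN was lost without mutALK 1 or 3 or MYCN 1, 2 or 3 (1.02 to 1.25, adjusted p = 0.0545 to 0.0932) and without the 5 hepatocyte-high arrays (0.90, adjusted p = 0.30). It was also lost with arrays of a shared title number averaged (1.27, adjusted p = 0.101) or that number as a random block (1.26, adjusted p = 0.0506), and with the hepatocyte mean as a covariate (1.14, adjusted p = 0.0612). MYCN minus adrenal was -0.87 ± 0.38 (adjusted p = 0.0787) and double transgenic minus MYCN -0.77 ± 0.38 (adjusted p = 0.220).

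Cd163 and Mrc1 went together over the 13 arrays (Pearson's r = 0.805, and 0.874 with group means removed). Adipocyte genes (5 of 6 measured) averaged 5.60 to 7.68 in mutALK, 5.54 to 8.51 in MYCN and 4.35 to 5.35 in tumours with both transgenes, against 9.92 to 11.89 in adrenal gland, and all 5 were called lower in each tumour group. MYCN 4, the tumour array with the highest Cd163, also had the highest adipocyte mean of the tumours. In mutALK 2 and 3 the adipocyte means were 5.62 and 5.60, and Mrc1 read 8.31 and 8.60, against 7.86 to 8.48 in adrenal gland. The part of fat tissue in the Cd163 and Mrc1 differences was not tested.

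Marco, a scavenger receptor that binds bacteria and particles, had the widest spread of the 10 genes within the tumours. It read 10.08, 5.38 and 6.13 in mutALK, 7.69, 6.73, 6.06 and 6.74 in MYCN and 8.79, 7.37 and 5.9 in tumours with both transgenes, against 5.42, 5.64 and 5.49 in adrenal gland. Of the tumour arrays only mutALK 2 fell at or below the adrenal range, and mutALK 1 and double transgenic 1 stood highest. Marco was not called in any comparison, with differences from adrenal gland of 1.68 ± 1.04 in mutALK, 1.29 ± 0.98 in MYCN and 1.84 ± 1.04 with both transgenes (adjusted p = 0.234, 0.314 and 0.175). Without mutALK 1 it was called in double transgenic tumours against adrenal gland at the same 1.84 (adjusted p = 0.0309). Its other probe set was likewise highest in mutALK 1, at 6.45, and double transgenic 1, at 5.22, and lay at 3.78 to 4.8 elsewhere.

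Other cell markers differed along with Marco. The B cell genes (3 of 4 measured) averaged 6.63 in mutALK 1, 7.36 in MYCN 1, 5.61 in MYCN 4 and 5.99 for double transgenic 2, and 4.40 to 4.62 in the 9 remaining arrays. Ms4a1, which encodes CD20, read 7.71 in mutALK 1, 8.42 in MYCN 1 and 6.95 for double transgenic 2. Double transgenic 1, with the second highest Marco value, had Ms4a1 at 4.55 and a hepatocyte mean of 11.87, the highest of the 13 arrays, while adrenal 2, with a hepatocyte mean of 10.76, had Marco at 5.64. Clec4f, a marker of liver macrophages, stayed within 5.32 to 6.40. Its highest values, 5.84 to 6.40, were in the 5 hepatocyte-high arrays, led by mutALK 1 (6.40) and double transgenic 1 (6.00). Vsig4, a gene of resident macrophages, was also highest in double transgenic 1 (7.81) and mutALK 1 (7.14). It read 6.63 in mutALK 3, 4.48 in MYCN 2 and 4.91 in adrenal 2, and 6.07 in mutALK 2, which was not hepatocyte-high. The part of lymphoid or liver tissue in the Marco levels was not tested.

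**Figure D4:**
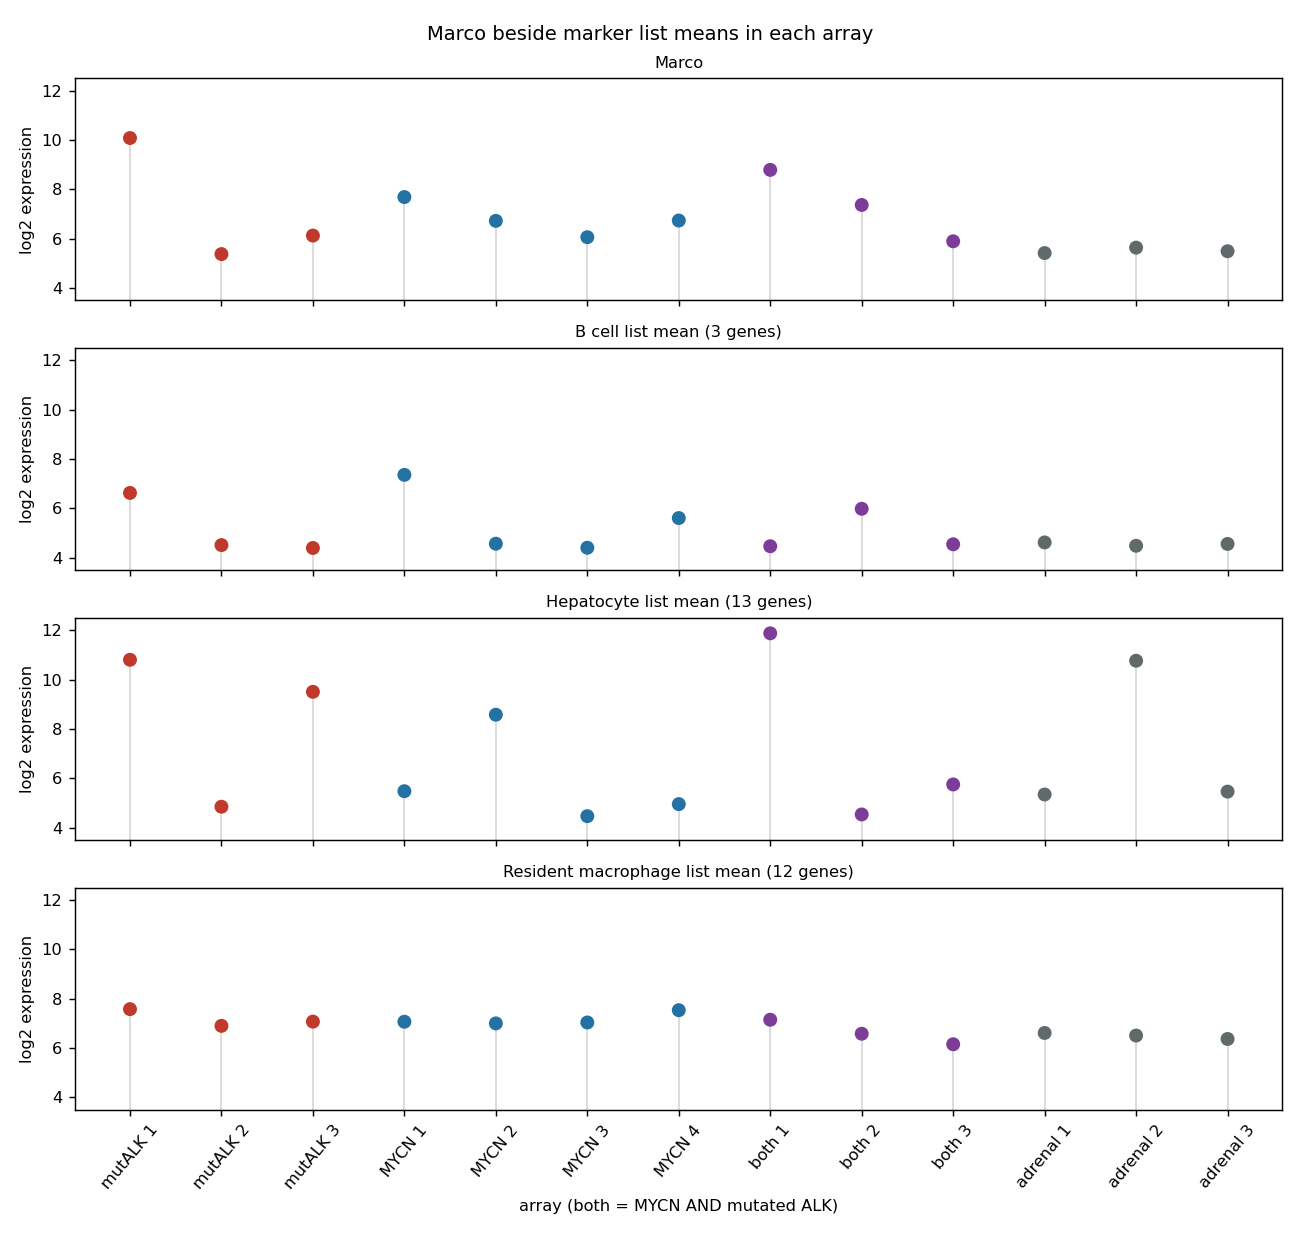
Log2 expression of Marco and mean log2 expression of B cell, hepatocyte and resident macrophage genes (vertical axes) in each of 13 arrays (horizontal axis; red mutALK, blue MYCN, purple double transgenic marked as both, grey adrenal). Marco reaches 10.08 in mutALK 1 and 8.79 in double transgenic 1, B cell genes are raised in 4 tumour arrays, and hepatocyte genes in 4 tumour arrays and adrenal 2.

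Further macrophage genes (22 of 22 measured) were called higher than in adrenal gland for 10 in mutALK (45.5%, against 21.3% of all genes), 9 in MYCN (40.9%, against 25.4%) and 4 in double transgenic tumours (18.2%, against 24.3%). They were lower for 0, 2 and 3 in that order (0%, 9.09% and 13.6%, against 21%, 24.8% and 24.2% of all genes). Their median differences were 0.86, 0.73 and -0.03, the last equal to that of all genes. Gpnmb, a glycoprotein of lipid-laden macrophages, rose by 2.86 ± 0.56 in mutALK, 3.68 ± 0.52 in MYCN and 3.74 ± 0.56 with both transgenes. Clec7a, the beta-glucan receptor dectin-1, rose in the same order by 1.64 ± 0.24, 2.34 ± 0.22 and 1.47 ± 0.24. Cd14 was lower in double transgenic tumours than in adrenal gland, at -1.41 ± 0.47 (limma, adjusted p = 0.0265). Double transgenic tumours had 0 higher and 7 lower than mutALK (31.8% lower, against 6.04% of all genes), among them the Fc receptor genes Fcgr1 at -1.52 ± 0.43 and Fcgr3 at -1.20 ± 0.34 and the protease gene Ctss at -1.24 ± 0.33, with a list median of -0.79. Against MYCN they had 0 higher and 2 lower (9.09% lower, near the 6.66% of all genes). The 2 were Mertk, a receptor for dying cells, at -1.07 ± 0.26 and Clec7a at -0.87 ± 0.22. In mutALK 6 were higher and 1 lower than in MYCN (27.3% and 4.55%, against 13.6% and 17.2% of all genes). Among the higher ones was the endotoxin co-receptor gene Cd14 at 1.5 ± 0.44.

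Of the genes of tissue-resident macrophages (12 of 12 measured), 5 were higher and 1 lower than in adrenal gland in mutALK, 6 and 1 in MYCN and 3 and 2 in double transgenic tumours. The shares higher were 41.7%, 50% and 25%, against 21.3%, 25.4% and 24.3% of all genes, so the share with both transgenes was near that of all genes. The shares lower were 8.33%, 8.33% and 16.7%, against 21%, 24.8% and 24.2% of all genes. Clec4n, which encodes dectin-2, rose by 2.57 ± 0.25, 3.17 ± 0.23 and 2.39 ± 0.25 in that order, and all 10 tumour arrays lay at 7.83 to 9.41 against 5.63 to 6.27 in adrenal gland. Spic, the transcription factor of iron-recycling macrophages, rose by 1.57 ± 0.29 in MYCN. Lyve1 and Nr1h3 went the other way in double transgenic tumours, at -2.37 ± 0.89 and -1.52 ± 0.29 against adrenal gland (limma, adjusted p = 0.0445 and 0.00108). Vsig4, a complement receptor of resident macrophages, read 7.14, 6.07 and 6.63 in mutALK, and 7.81 in double transgenic 1 against 4.74 and 4.73 in the other double transgenic arrays, and 4.34 to 5.0 in adrenal gland. It was higher in mutALK by 1.86 ± 0.69 over adrenal gland and by 2.01 ± 0.64 over MYCN (limma, adjusted p = 0.0483 and 0.0338). Against MYCN, 4 of the 12 were lower in double transgenic tumours (33.3%, against 6.66% of all genes), including the iron exporter gene Slc40a1 at -1.22 ± 0.31 and the haem oxygenase gene Hmox1 at -1.34 ± 0.40.

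The list of cytokines, receptors and transcription factors on which macrophages and their precursors depend had 15 of 16 genes measured. Il34, a ligand of the CSF1 receptor, fell by 1.63 ± 0.51 in mutALK, by 2.33 ± 0.47 in MYCN and by 2.69 ± 0.51 in double transgenic tumours against adrenal gland. Csf1, named as the other ligand and not for its size of change, read 6.86 to 7.76 in mutALK, 6.65 to 6.91 in MYCN and 6.27 to 6.92 in tumours with both transgenes, against 7.84 to 8.17 in adrenal gland. Maf, a transcription factor of tissue macrophages that other cells of these tissues may also express, fell by 1.52 ± 0.34 in MYCN and fell by 2.41 ± 0.37 in double transgenic tumours, and was lower by 1.55 ± 0.37 in double transgenic tumours than in mutALK. Over the list 1 was higher and 3 lower in mutALK, 1 and 5 in MYCN and 0 and 8 in double transgenic tumours against adrenal gland, and 0 and 4 in double transgenic tumours against mutALK. The shares lower against adrenal gland were 20% in mutALK, 33.3% in MYCN and 53.3% with both transgenes, against 21%, 24.8% and 24.2% of all genes, and the share lower against mutALK was 26.7%, against 6.04%.

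Of 16 measured other complement genes (of 20), 1 was higher and 3 lower in mutALK, 1 and 7 in MYCN and 1 and 8 in double transgenic tumours against adrenal gland, with medians of -0.24, -1.12 and -0.73. The shares lower were 18.8%, 43.8% and 50% beside the 21%, 24.8% and 24.2% of all genes, so in mutALK the share was near that of all genes. C2, a protease of the classical pathway, fell by 2.56 ± 0.25 in mutALK and fell by 3.02 ± 0.23 in MYCN. Masp1, a protease of the lectin pathway, fell by 3.12 ± 0.58 in mutALK and fell by 4.11 ± 0.54 in MYCN. The inhibitors differed between tumours. Cd55, which dismantles the C3 convertase, was 4.01 ± 0.55 higher in mutALK than in MYCN and 2.99 ± 0.55 higher in double transgenic tumours than in MYCN (limma, adjusted p = 0.000312 and 0.00647). Cd59a, which blocks the membrane attack complex, was higher by 3.18 ± 0.32 and 1.40 ± 0.32 in those comparisons, and fell by 1.98 ± 0.34 in mutALK and 5.16 ± 0.32 in MYCN against adrenal gland.

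Genes of phagocytosis and its bridging molecules (13 of 13 measured) were called lower than in adrenal gland for 7 in mutALK (53.8%, against 21% of all genes), 9 in MYCN (69.2%, against 24.8%) and 11 with both transgenes (84.6%, against 24.2%), with 1, 1 and 0 higher. Cd36, at 12.32 in adrenal gland, fell by 4.78 ± 0.56 in mutALK, 3.69 ± 0.52 in MYCN and 5.82 ± 0.56 with both transgenes. Gas6, the ligand of the receptors Axl and Mertk, fell by 2.41 ± 0.33, 3.82 ± 0.30 and 3.13 ± 0.33 in that order. Adipocyte, endothelial and adrenal cortex genes were also lower in each tumour group, and the part of such tissue in these falls was not tested. Cd47, which restrains engulfment, was higher by 1.57 ± 0.20 in mutALK and by 0.80 ± 0.20 in double transgenic tumours than in MYCN. Among genes of macrophage activation (14 of 15 measured), Chil3, a chitinase-like protein of macrophages and neutrophils, averaged 9.63 ± 0.91 in mutALK, 3.94 ± 0.33 in MYCN and 3.71 ± 0.56 in tumours with both transgenes, against 5.87 ± 1.33 in adrenal gland. Against adrenal gland Retnla was at -2.97 ± 0.50, -3.21 ± 0.46 and -3.59 ± 0.50 in that order. Arg1 averaged 9.34 ± 0.54 in mutALK against 5.47 ± 2.93 in adrenal gland. Counts there were 3 higher and 3 lower in mutALK, 0 and 4 in MYCN and 0 and 4 in double transgenic tumours against adrenal gland. The shares lower were 21.4%, 28.6% and 28.6%, near those of all genes. The shares higher were 21.4%, 0% and 0%, against 21.3%, 25.4% and 24.3% of all genes.

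Neutrophil genes (7 of 8 measured) moved beside these values. They averaged 7.33 to 9.02 in mutALK, 4.67 to 5.12 in MYCN and 4.48 to 5.38 in tumours with both transgenes, against 4.98 to 5.05 in adrenal gland, and 5 of 7 were higher in mutALK than in adrenal gland (71.4%, against 21.3% of all genes) and 6 of 7 higher than in MYCN (85.7%, against 13.6%). Their part in the mutALK differences of the macrophage genes was not tested. MHC class II genes (6 of 7 measured), which antigen-presenting cells use, were lower for 5 of 6 in double transgenic tumours than in adrenal gland (83.3%, against 24.2% of all genes), with Cd74 at -2.46 ± 0.64. In mutALK and in MYCN 0 of 6 were called against adrenal gland, as were 0 of 6 in each comparison between tumour groups. The median difference of these genes from adrenal gland was -1.49 in mutALK, -1.0 in MYCN and -2.32 with both transgenes. Their means were 6.66 to 8.62 in mutALK, 6.93 to 8.73 in MYCN and 6.22 to 7.30 in tumours with both transgenes, against 8.25 to 8.84 in adrenal gland.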

How the data were processed

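The authors deposited log2 expression values of 13 arrays, made by RMA (background correction, quantile normalization and probe set summary) in Partek, per the submitters' processing notes. Versions, and whether all arrays were normalized together, are not given in the sources used here. The deposited values run from 2.04 to 14.46, and array medians lie between 5.8 and 5.9. No depth applies to arrays, whose number limits the precision.

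Probe sets with 1 gene symbol (34945 of 45101) were used, each gene at its probe set of highest mean over the arrays (18193 genes, no filter on dim genes). Groups were taken from the labels. limma 3.58.1 (lmFit, eBayes) in R 4.3.3 fitted 1 mean per group to all 13 arrays, with 9 residual and 2.28 prior degrees of freedom, and 6 two-sided contrasts were adjusted by Benjamini-Hochberg over all genes. A gene shared by several comparisons rests on the same arrays. The fit was tested on simulated data for 18193 genes, 200 of them changed: per comparison it found 60 to 67% of the changes of 1 log2 unit, 89 to 95% of those of 2, and 4 to 9 false ones.

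The members, the other gene lists, the tests and the alternatives were chosen with earlier results of these data known. Named genes are all 10 members, up to 3 called genes per further list and comparison by size, the 8 genes most correlated with the C1q mean and with Cd5l, and defining markers given as levels. Alternatives were repeated quantile normalization, median centring, all probe sets averaged or tested singly, leaving out the dimmest 40% of genes, trend with robust eBayes, array weights, only the compared groups, averaging or blocking arrays with a shared title number, sex (read from Y-linked genes) or the hepatocyte mean as a covariate, leaving out the 5 arrays with a hepatocyte mean above 8, and leaving out each array. Motifs were searched with Python 3.11.15, and figures drawn with matplotlib 3.10.9.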

Additional observations from a re-analysis of the deposited data

Results flagged for a closer look

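In the 4 MYCN arrays, 32 series of values (the 10 genes and 22 list means) were checked for an array far from the others, by the gap to the nearest array as a share of the group's range, against Dixon's 95% critical value for 4 values. None of the 10 genes exceeded it, and 7 list means did. Chance flags about 1 in 20 such groups. MYCN 4 was the highest array for genes of phagocytosis (8.44 against 8.03 to 8.05, gap 0.965 of the range), of macrophage activation (5.8 against 5.47 to 5.5, 0.920), of resident macrophages (7.53 against 6.99 to 7.06, 0.874) and of red cells (5.74 against 5.04 to 5.13, 0.869). It was also the highest MYCN array for 9 of the 10 genes, all but Marco. MYCN 4 was lowest for Y-linked genes (3.13 against 8.29 to 8.63, 0.938), being the array of that group read as female. MYCN 1 was highest for T cell genes (6.18 against 5.31 to 5.44, 0.852), and MYCN 3 lowest for the complement genes outside C1q (6.52 against 6.67 to 6.69, 0.876).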

How the results depend on the processing

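Of 1554 alternative values for the 60 member differences, 1457 stayed on the same side of the threshold, 48 lost a call, 49 gained one and 0 reversed a called direction; Cd5l against adrenal gland kept its call in all. The number of the 10 genes called moved by over 1.5 times as follows, and the cause was not tested. With sex as a covariate it was 4 for mutALK minus adrenal, 2 for mutALK minus MYCN, 1 for double transgenic minus MYCN and 1 for double transgenic minus mutALK (2, 1, 0 and 3 as reported). Array weights were 5.606 for adrenal 1, 0.182 for adrenal 2 and 0.835 for adrenal 3, so the weighted adrenal mean rested mostly on adrenal 1. With these weights the number called was 5 for MYCN minus adrenal, 7 for double transgenic minus adrenal (3 as reported in both) and 1 for double transgenic minus MYCN. Without the 5 hepatocyte-high arrays, which leaves 8 arrays and mutALK with 1 whose spread is assumed like the others', it was 1, 1, 0, 1 and 0 for mutALK minus adrenal, MYCN minus adrenal, mutALK minus MYCN, double transgenic minus MYCN and double transgenic minus mutALK. For mutALK minus MYCN it was 2 with median centring or without the dimmest genes and 0 with shared title numbers averaged or as a random block. For double transgenic minus MYCN it was 1 with median centring, repeated quantile normalization, without the dimmest genes or with the compared groups alone, and for double transgenic minus mutALK 1 with the compared groups alone or title numbers averaged. Leaving out 1 array gave 1 to 5, 2 to 4 and 3 to 4 for mutALK, MYCN and double transgenic minus adrenal, 0 to 2 for mutALK minus MYCN, 0 to 1 for double transgenic minus MYCN and 1 to 4 for double transgenic minus mutALK. Cd163 has no value without the dimmest genes, which leaves it out. No paired analysis was possible because the labels give no replicate numbers shared between groups. Dim genes such as Cd163 in double transgenic tumours are limited by signal over background, which was not measured for each probe set. As a rough mark of background, Y-linked genes read 2.73 to 3.53 in the 7 arrays read as female.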

Other observations

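Endothelial genes (6 of 6 measured) were lower than in adrenal gland for 6 of 6 in each of mutALK, MYCN and the tumours with both transgenes, beside 21%, 24.8% and 24.2% of all genes, with median differences of -2.22, -2.04 and -3.55. They were lower for 5 of 6 in double transgenic tumours than in MYCN and for 4 of 6 than in mutALK, against 6.66% and 6.04% of all genes, with medians of -1.76 and -1.56. Their mean was 6.12 to 6.87 in mutALK, 5.82 to 7.35 in MYCN and 4.79 to 5.47 in double transgenic tumours, against 8.73 to 8.89 in adrenal gland. The double transgenic tumours had the lowest endothelial arrays and the lowest group means of Csf1r, C1qa, C1qb, C1qc, Cd163 and Mrc1. For C1qc that mean was 8.42, against 8.47 in adrenal gland. Adgre1 had its lowest group mean in MYCN, and Cd68, Cd5l and Marco had theirs in adrenal gland. A link between endothelial and macrophage genes was not tested.

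T cell genes (5 of 6 measured) were called in 1 instance, lower in double transgenic tumours than in adrenal gland, and averaged 5.39 to 6.08 in mutALK, 5.31 to 6.18 in MYCN and 5.16 to 5.45 in double transgenic tumours, against 5.49 to 5.87 in adrenal gland. Genes used as microglia markers (5 of 6 measured) averaged 4.90 to 5.10 in mutALK, 4.70 to 4.86 in MYCN and 4.55 to 4.72 in double transgenic tumours, against 5.11 to 5.45 in adrenal gland. Cd5l set relative to Csf1r in each array was lower in mutALK than in MYCN by 1.43 and higher in double transgenic than in mutALK tumours by 1.55, with no overlap of the groups in either, whereas Cd5l itself was not called between tumour groups; these ratios were not tested.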
